A study of Mus musculus with 451 samples.

Results

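Aggrecan, versican, the hyaluronan synthases and the proteins that share the hyaluronan-rich pericellular matrix with them were examined gene by gene in single tail tendon cells. The set held 10 genes, Acan, Vcan, Hapln1, Hspg2, Prg4, Has1, Has2, Has3, Cspg4 and Tnfaip6, taken by symbol out of the 48795 symbols of the read count table. All 10 had at least 1 read, and 8 had at least 100 reads over all cells. Hapln1 and Has3 stayed below that minimum.

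Aggrecan and versican are large chondroitin sulphate proteoglycans whose globular head binds hyaluronan, a long sugar chain spun out at the plasma membrane by the Has enzymes. Link protein, encoded by Hapln1, locks that bond, and the product of Tnfaip6, TSG-6, moves heavy chains of inter-alpha-inhibitor onto hyaluronan. Aggrecan is the main swelling proteoglycan of cartilage and of tendon under compression, versican lies around cells and fibre bundles of tensile tendon, and lubricin, the product of Prg4, coats gliding surfaces.

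The cells came from tail tendons of C57BL/6 mice at 4 weeks of age, either wild type (WT, 227 cells) or without Mohawk homeobox (Mkx-/-, 224 cells), a transcription factor of tendon cells. Each cell was captured and lysed in its own chamber of a Fluidigm C1 high-throughput chip. The labels tie no cell to an animal or a chip, so a genotype was treated as 1 sample, animal or chip and genotype cannot be told apart, and no test between genotypes was possible. Every interval below is at 95% and covers counting error only.

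Cells were grouped without using the 10 genes, which gave 3 clusters. The first took 45.8% of WT and 43.3% of Mkx-/- cells, had the highest level of all 5 markers of tendon progenitor cells (TPCs), such as Cd44 and Ly6a, and is called TPC-like. In another, 73 WT and 81 Mkx-/- cells had the highest level of all 6 tenocyte (TC) markers, such as Tnmd and Col1a1, and are called TC-like. The remaining 50 WT and 46 Mkx-/- cells, led by Mmp3 and Mmp10, had the highest Itm2a and Lgals3 but only those 2 tenoblast markers to rest on, and are called cluster 3.

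The median cell held 51788 reads in WT and 56121 in Mkx-/-, and cell depth differed more between clusters, from a median of 36923.5 reads in WT cells of cluster 3 to 83043 in WT TC-like cells. Reads of Mkx itself stood at 33.8 CPM (reads scaled to a common depth; interval 30.8 to 37.1) in WT against 15.5 CPM (13.5 to 17.7) in Mkx-/-. The deleted stretch of Mkx is not given in the sources used here, so remaining reads could not be assigned to a deleted or an intact exon. In TC-like cells the 6 tenocyte markers together took 319186 CPM in WT against 227906 CPM in Mkx-/-. Tnmd and Fmod of that list went the other way, at 3843 and 4283 CPM in WT against 4993 and 5850 CPM in Mkx-/-. In these cells the log2 ratio of Mkx-/- to WT had a median of 0.21 over all 8201 genes with at least 100 reads. The median lay at 0.05 over all cells, at 0.00 in TPC-like cells and at 0.07 in cluster 3. Ratios in TC-like cells are therefore also given relative to that median.

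Of the 10 genes, 7 had an entry among the RefSeq promoters used (GRCm38.p6), and the 250 bases before the start of transcription are printed for the 3 whose genotype ratios the results turn on. Capitals mark CCAAT and TGANTCA (the AP-1 motif), searched on both strands together with TATAAA, and ATTGG is CCAAT read on the other strand. The stretches lie at chr2:52037863-52038112 on the plus strand for Tnfaip6, at chr7:79052976-79053225 on the plus strand for Acan and at chr13:89742513-89742762 on the minus strand for Vcan.
Tnfaip6: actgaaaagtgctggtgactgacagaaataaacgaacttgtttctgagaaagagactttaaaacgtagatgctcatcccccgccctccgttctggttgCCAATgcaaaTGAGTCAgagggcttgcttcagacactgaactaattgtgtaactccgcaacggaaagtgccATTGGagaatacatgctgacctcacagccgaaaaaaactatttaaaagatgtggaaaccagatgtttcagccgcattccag
Acan: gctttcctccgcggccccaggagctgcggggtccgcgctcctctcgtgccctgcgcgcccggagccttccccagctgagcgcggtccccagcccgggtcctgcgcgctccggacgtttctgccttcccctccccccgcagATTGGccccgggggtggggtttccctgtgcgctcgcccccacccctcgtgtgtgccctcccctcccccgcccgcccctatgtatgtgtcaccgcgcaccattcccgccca
Vcan: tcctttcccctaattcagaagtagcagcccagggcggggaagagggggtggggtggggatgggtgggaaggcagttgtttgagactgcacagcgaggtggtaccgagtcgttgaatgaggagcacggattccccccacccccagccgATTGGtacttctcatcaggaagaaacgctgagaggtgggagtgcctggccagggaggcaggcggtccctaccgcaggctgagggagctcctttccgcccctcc
The Tnfaip6 stretch held CCAAT 2 times and TGANTCA 1 time, and those of Acan and Vcan held CCAAT 1 time each. None of the 3 held TATAAA. Among all 32851 promoters cut to the same 250 bases, 33.8% held CCAAT, 6.75% held TGANTCA and 12.4% held TATAAA. No match says whether a factor binds there, and nothing in these data measures binding.

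Acan, the aggrecan core protein gene (mm9 chr7:86198369-86259985, plus strand), was read almost only in TC-like cells. TC-like cells held 98.3% of its reads in WT and 97.8%, or 271 of 277, in Mkx-/-. In TPC-like cells 2 reads were found in WT and 4 in Mkx-/-, and in cluster 3 there were 0 and 2. TC-like cells thus stood above TPC-like cells by 5.57 (3.68 to 8.63) on the log2 scale in WT and by 5.61 (4.23 to 7.49) in Mkx-/-.

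Within TC-like cells the Acan level was 18.2 CPM (15.04 to 21.9) in WT against 38.9 CPM (34.4 to 43.8) in Mkx-/-, a log2 ratio of 1.09 (0.77 to 1.42). Relative to the median gene the ratio was 0.88 (0.56 to 1.21), which is short of 2-fold. Of 73 WT cells 20 had a read (27.4%, exact interval 17.6 to 39.1), and of 81 Mkx-/- cells 37 did (45.7%, 34.6 to 57.1). The difference in shares was 18.3 percentage points (3.02 to 32.3), although WT TC-like cells were the more deeply read. For cells with at least 2 reads it was 11.7 points (-2.13 to 24.7), which spans 0. When every cell was thinned to 28000 reads, the expected shares were 18.6% and 30.96%.

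In the median TC-like cell of either genotype no Acan read was seen, and the highest cells stood at 212.4 CPM in WT against 338.2 CPM in Mkx-/-. Among cells with a read the median was 49.1 CPM in WT against 28.8 CPM in Mkx-/-. Acan reads were thus found in a larger share of Mkx-/- cells but not at a higher median in the cells that had them. In WT 4 cells, and in Mkx-/- 6 cells, held 50% of the reads of their cluster.

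Of the 57 TC-like cells with Acan, 53 also had reads of Col2a1, where the product of the shares gives 48.9, and 42 had reads of Sox9, against 37.01. The 7 chondrocyte markers together stood at 565 CPM in WT against 372 CPM in Mkx-/- TC-like cells, in the opposite direction to Acan, with 5 of 7 read in WT and 4 of 7 in Mkx-/-. Of that list, Col2a1 stood at 333.3 CPM in WT against 225.2 CPM in Mkx-/- TC-like cells, and Sox9 at 226.4 and 140.95 CPM. Col9a1 and Matn1 were at 0 reads in TC-like cells of both genotypes. Outside the TC-like cells the list stood at 25.02 CPM in WT against 31.7 CPM in Mkx-/- TPC-like cells, and at 133.8 and 88.7 CPM in cluster 3, where Sox9 took 106.03 and 73.9 CPM of it.

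Vcan, the versican gene (mm9 chr13:89794915-89882117, minus strand), had the opposite distribution. It was highest in TPC-like cells, with 568 CPM (548 to 589) in WT against 637 CPM (616 to 660) in Mkx-/-. Cluster 3 held 268 CPM (247 to 291) and 309 CPM (286 to 333). TC-like cells held 153.2 CPM (143.7 to 163.2) in WT against 330 CPM (317 to 344) in Mkx-/-.

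The order from TPC-like over cluster 3 to TC-like cells was plain in WT, whereas in Mkx-/- cluster 3 and TC-like cells did not differ beyond counting error (log2 ratio 0.09, -0.03 to 0.22). TC-like cells lay below TPC-like cells by a log2 ratio of -1.89 (-1.998 to -1.786) in WT and of -0.95 (-1.03 to -0.87) in Mkx-/-. The genotype ratio of Vcan was 1.11 (0.998 to 1.217) in TC-like cells. It was smaller in TPC-like cells, at 0.17 (0.09 to 0.24), and in cluster 3, at 0.21 (0.04 to 0.37). Relative to the median gene the TC-like ratio was 0.89 (0.79 to 1.005).

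Per cell, Vcan in WT TC-like cells ranged from 0 to 996 CPM with a median of 53.7, and in Mkx-/- TC-like cells from 0 to 1451 CPM with a median of 172.1. The share of TC-like cells with a read was 72.6% (60.9 to 82.4) in WT and 87.7% (78.5 to 93.9) in Mkx-/-. In TPC-like cells the medians ran the other way, 400 CPM in WT against 305 CPM in Mkx-/-, and 12 Mkx-/- cells held 50% of the reads there. The ranges of the genotypes overlapped in every cluster, and the highest cell of each was of Mkx-/-, for example 3610 against 2510 CPM in TPC-like cells.

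Hapln1, the cartilage link protein gene (mm9 chr13:89680241-89751437, plus strand), was barely read. There were 50 reads in 8 WT cells and 16 reads in 5 Mkx-/- cells, and 1 cell held 23 of the WT reads and 1 cell 62.5% of the Mkx-/- reads. The WT cell with most Hapln1 reads was also the only well of the series with reads of at least 4 mural and at least 4 endothelial markers. The log2 ratio was -1.70 (-2.61 to -0.86) over all cells and -0.84 (-1.84 to 0.10) without that well. Only 2 cells had reads of Acan together with Hapln1, and the product of the shares over all cells gives 1.82. Both were TC-like cells, and within that cluster the product gives 4.07.

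**Figure D1:**
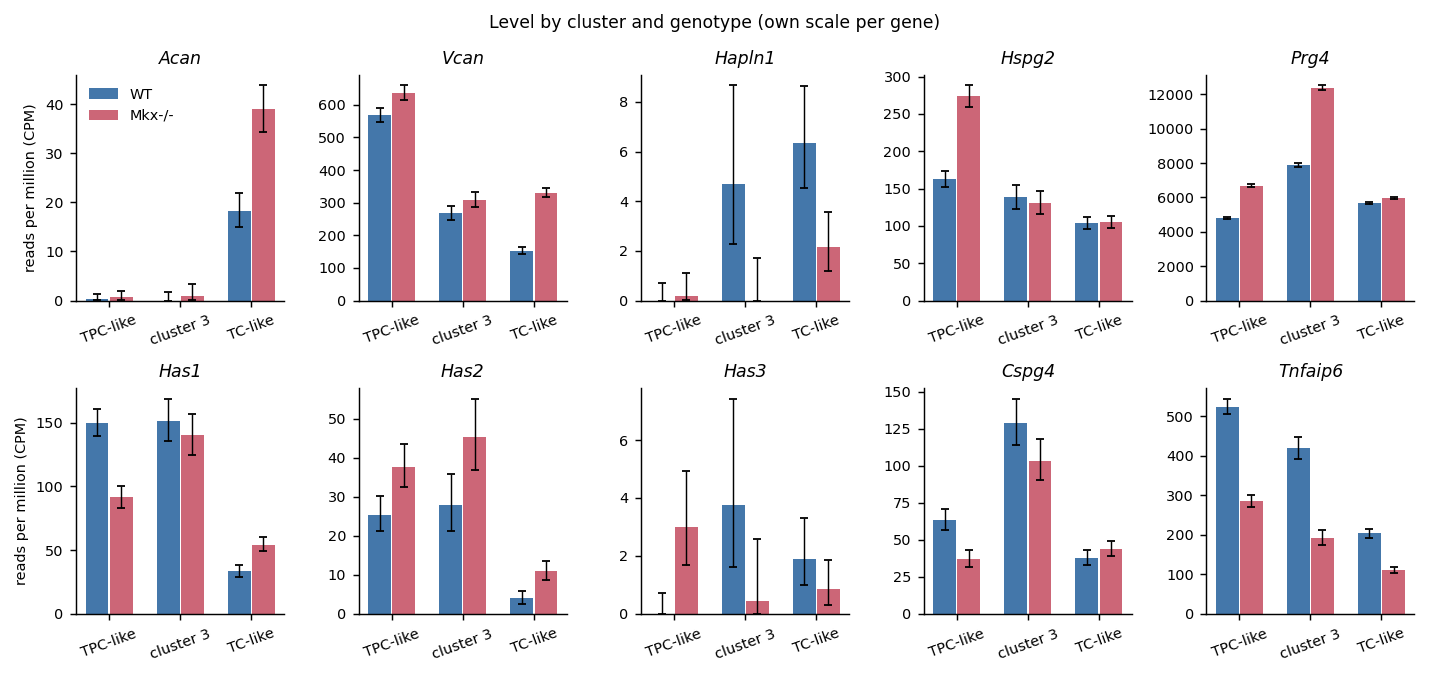
Level of each of the 10 genes in CPM (vertical axis, own scale per gene, from 0) in the 3 clusters, WT in blue and Mkx-/- in red, with exact Poisson intervals for counting error as bars. Acan stands almost alone in TC-like cells (18.2 CPM in WT, 38.9 in Mkx-/-), and Tnfaip6 is lower in Mkx-/- in each cluster.

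The hyaluronan synthases differed widely in how often they were read. Has1 (mm9 chr17:17980292-17992152, minus strand) was read in 42.3% of WT and 46.9% of Mkx-/- cells, and Has2 (mm9 chr15:56497182-56526094, minus strand), the main synthase of developing mesenchyme, in 22.03% and 26.8%. Has3 (mm9 chr8:109394142-109406802, plus strand) had 20 reads in 3 WT cells and 22 reads in 3 Mkx-/- cells. Exons of Has2 overlap those of Has2as on the opposite strand, and no source used here says whether counting kept strand, so reads of those genes cannot be told apart. At least 1 of the 3 synthases was read in 54.6% (47.9 to 61.2) of WT and 62.9% (56.3 to 69.3) of Mkx-/- cells.

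Has1 had genotype ratios of opposite sign in TPC-like and TC-like cells. In TPC-like cells it stood at 149.5 CPM (139.2 to 160.4) in WT against 91.5 CPM (83.4 to 100.3) in Mkx-/-, a log2 ratio of -0.71 (-0.88 to -0.54). In TC-like cells it stood at 33.4 CPM (29.1 to 38.3) in WT against 54.4 CPM (49.1 to 60.2) in Mkx-/-, a ratio of 0.70 (0.46 to 0.95), or 0.49 (0.24 to 0.74) relative to the median gene. In cluster 3 it was 151.3 CPM (135.2 to 168.8) and 140 CPM (124.7 to 156.7), a ratio of -0.11 (-0.34 to 0.12) that spans 0.

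The share of cells with a Has1 read followed the level in TC-like cells, at 27.4% (17.6 to 39.1) in WT and 48.1% (36.9 to 59.5) in Mkx-/-, a difference of 20.7 points (5.39 to 34.7). In TPC-like cells the shares were 52.9% (42.9 to 62.7) and 47.4% (37.2 to 57.8), and their difference of -5.46 points (-18.9 to 8.24) spans 0. In cells with a Has1 read the median was 179.3 CPM in WT against 114.6 CPM in Mkx-/- TPC-like cells. In TC-like cells with a read it was 99.7 CPM in WT against 57.6 CPM in Mkx-/-, opposite to the level. There 1 Mkx-/- cell held 21.9% of the Mkx-/- reads. By summed reads, the distance of TC-like cells below TPC-like cells was wider in WT (log2 ratio -2.16, -2.39 to -1.94) than in Mkx-/- (-0.75, -0.95 to -0.55).

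Has2 too was lowest in TC-like cells. Its WT levels were 3.96 CPM (2.56 to 5.85) there, against 25.4 CPM (21.2 to 30.1) in the TPC-like cluster and 27.8 CPM (21.2 to 35.9) in cluster 3. In Mkx-/- they were, in the same order, 10.9 CPM (8.59 to 13.6), 37.7 CPM (32.5 to 43.5) and 45.3 CPM (36.8 to 55.2). TPC-like cells and cluster 3 did not differ beyond counting error in either genotype.

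The genotype ratio of Has2 was 0.57 (0.24 to 0.90) in TPC-like cells, with 0.70 (0.22 to 1.20) in cluster 3. The TC-like ratio of 1.46 (0.79 to 2.18) was 1.25 (0.58 to 1.963) relative to the median gene and rests on 25 and 76 reads, of which 1 cell held 14 in WT and 1 cell 38 in Mkx-/-. Without those cells 11 and 38 reads were left, fewer than 100, with a ratio before centring of 1.66 (0.66 to 2.78). Over all cells the ratio was 0.70 (0.45 to 0.95), and with cells weighted alike it was 0.85. It was 0.15 when cells under 28000 reads were also left out, with no read thinned. No share of cells with a Has2 read differed between genotypes beyond its interval, the widest gap being 10.2 points (-2.67 to 22.7) in TPC-like cells.

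**Figure D2:**
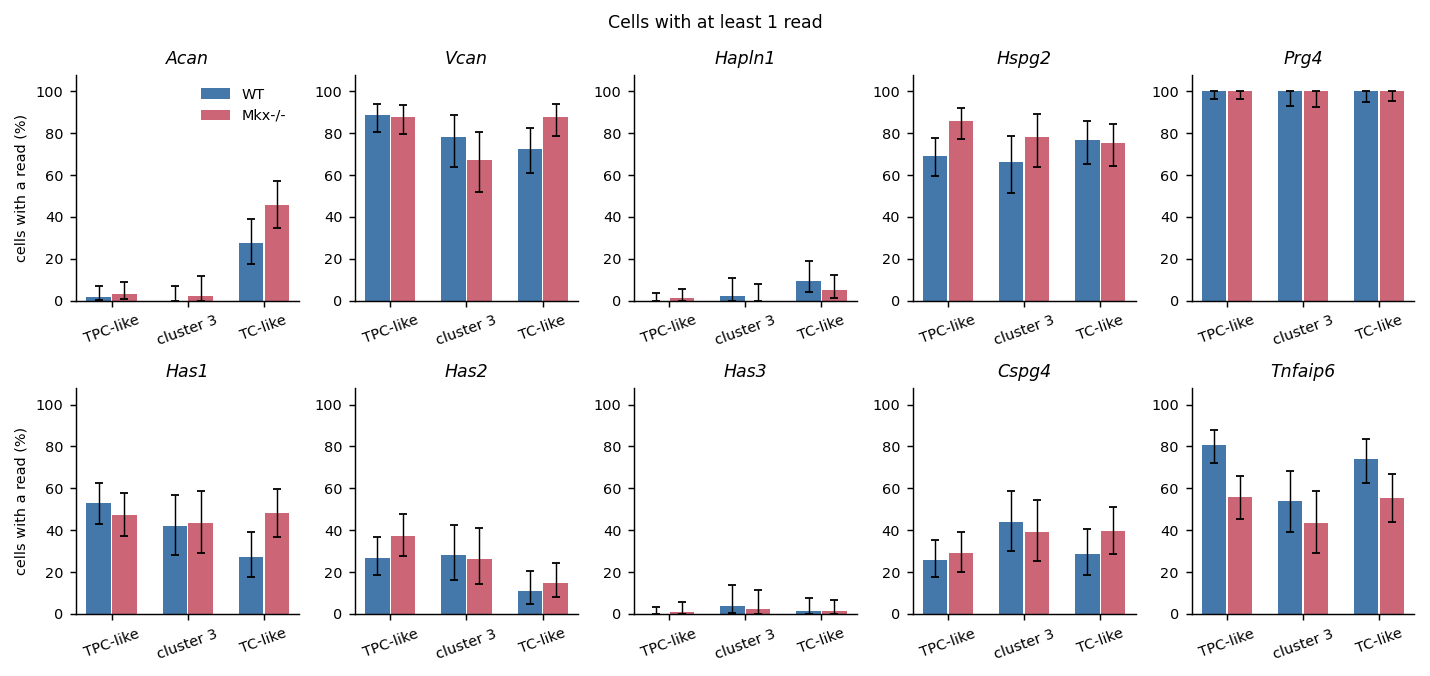
Share of cells with at least 1 read of each gene (percent of cells, vertical axis) in the 3 clusters, WT in blue and Mkx-/- in red, with exact Clopper-Pearson intervals as bars. Prg4 was read in 100% of cells, while the share with Tnfaip6 in TPC-like cells was 80.8% in WT and 55.7% in Mkx-/-.

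Tnfaip6, the TSG-6 gene (mm9 chr2:51893529-51912206, plus strand), whose product is made in inflamed and matrix-forming connective tissue, was lower in Mkx-/- in every cluster. TPC-like cells held 525 CPM (506 to 545) in WT against 285 CPM (270 to 300) in Mkx-/-. Cluster 3 held 419 CPM (392 to 448) and 192.7 CPM (174.6 to 212.1), and TC-like cells held 204.2 CPM (193.2 to 215.7) and 110.4 CPM (102.7 to 118.5). The level of summed reads went down from TPC-like over cluster 3 to TC-like cells in both genotypes. Medians over cells and shares of cells with a read were instead lowest in cluster 3, with shares of 54% in WT and 43.5% in Mkx-/-. There 4 WT and 3 Mkx-/- cells held 50% of the reads.

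The log2 ratios were -1.12 (-1.29 to -0.95) in cluster 3, with -0.88 (-0.98 to -0.79) in TPC-like cells. In TC-like cells the ratio was -0.89 (-1.02 to -0.76), or -1.10 (-1.23 to -0.97) relative to the median gene. Over all cells the ratio was -0.96 (-1.03 to -0.89), just short of 2-fold. Per cell, WT TPC-like cells ranged from 0 to 7448 CPM with a median of 280.5 CPM, and Mkx-/- TPC-like cells from 0 to 2223 CPM with a median of 32.04. The TC-like medians were 101.4 CPM in WT against 15.7 CPM in Mkx-/-, and those of cluster 3 were 23.3 and 0 CPM. Among TPC-like cells with a read the medians lay closer together, at 417 CPM in WT against 338 CPM in Mkx-/-.

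Over all cells 72.7% (66.4 to 78.4) of WT cells had a Tnfaip6 read, against 53.1% (46.4 to 59.8) of Mkx-/- cells. The difference was -19.6 points (-28.0 to -10.7), although the median Mkx-/- cell was read more deeply. By cluster it was -25.1 points (-36.9 to -12.3) in TPC-like cells, with -18.4 points (-32.3 to -3.27) in TC-like cells. In cluster 3 it was -10.5 points (-29.1 to 9.20), where the interval spans 0. Among cells of at least 28000 reads, thinned to that depth, the shares were 67.3% and 49.05%.

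**Figure D3:**
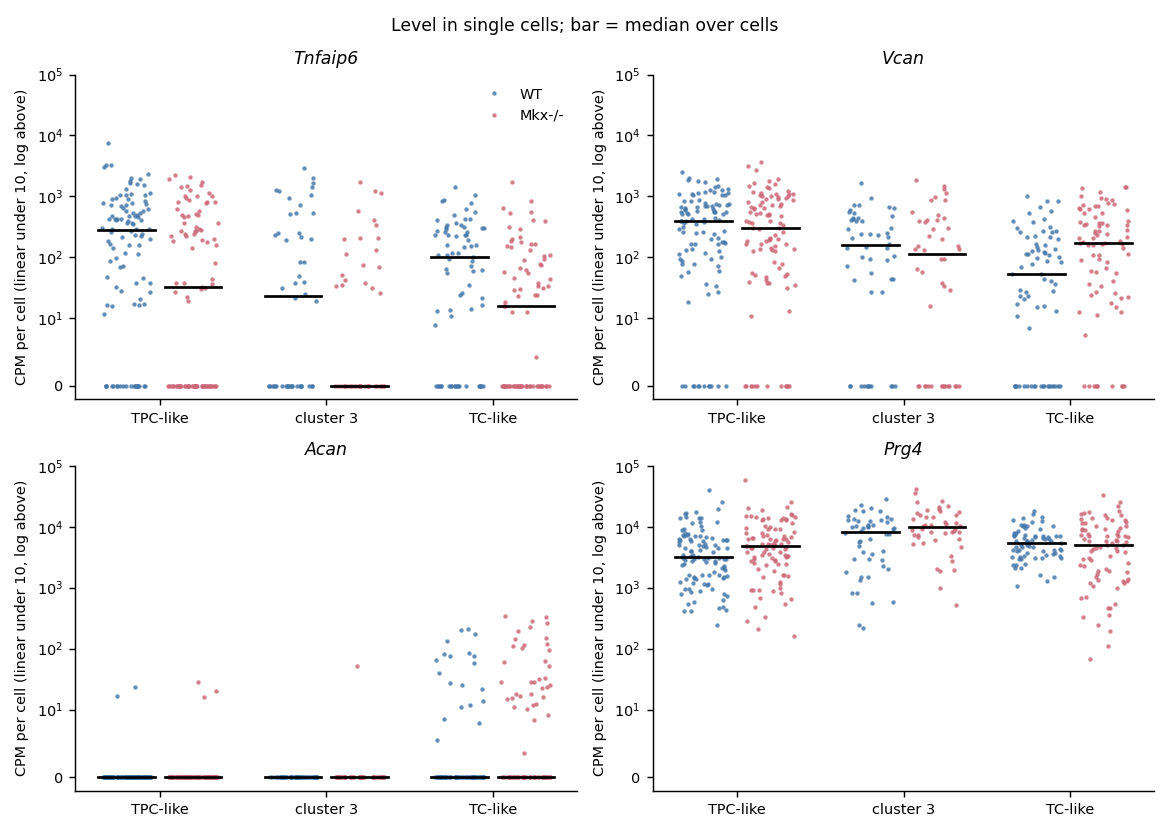
Level of Tnfaip6, Vcan, Acan and Prg4 in each cell (CPM, vertical axis, linear below 10 and log above), by cluster, WT in blue and Mkx-/- in red. Each point is 1 cell, points are spread sideways at random and black bars are medians over cells, which for Tnfaip6 in TPC-like cells were 280.5 CPM in WT against 32.04 CPM in Mkx-/-.

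Prg4, the lubricin gene (mm9 chr1:152296542-152313295, minus strand), was among the only 33 genes read in all cells of both genotypes. It ranged from 67.8 to 59653 CPM per cell, and 51 cells lay under 1000 CPM. Its exons overlap those of Tpr on the opposite strand, and with strand unknown, reads of the pair cannot be told apart.

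Prg4 was highest in cluster 3, with 7893 CPM (7774 to 8014) in WT and 12368 CPM (12221 to 12517) in Mkx-/-. TPC-like cells held 4785 CPM (4726 to 4845) and 6681 CPM (6610 to 6753), and TC-like cells held 5693 CPM (5634 to 5752) and 5988 CPM (5931 to 6046). The genotype ratio was 0.65 (0.62 to 0.68) in cluster 3, and TPC-like cells had one of 0.48 (0.46 to 0.51). In TC-like cells it was 0.07 (0.05 to 0.09), but -0.14 (-0.16 to -0.12) relative to the median gene, so no direction can be given there. The intervals are narrow because reads were many, whereas medians over cells were 8096 and 9743 CPM in cluster 3, and 3157 and 4902 CPM in TPC-like cells, while cells ranged from 217.1 to 41007 CPM and from 158.1 to 59653 CPM.

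Hspg2, the gene of perlecan (mm9 chr4:137024634-137126545, plus strand), a heparan sulphate proteoglycan of basement membranes and of the pericellular matrix, differed between genotypes in TPC-like cells. They held 162.8 CPM (152.01 to 174.1) in WT against 273 CPM (259 to 288) in Mkx-/-, a log2 ratio of 0.75 (0.62 to 0.87). In cluster 3 the ratio was -0.08 (-0.32 to 0.16) and in TC-like cells 0.02 (-0.13 to 0.18), but -0.19 (-0.34 to -0.03) relative to the median gene, so no direction can be given in TC-like cells. The share of TPC-like cells with a read was 69.2% (59.4 to 77.9) in WT and 85.6% (76.97 to 91.9) in Mkx-/-, a difference of 16.3 points (4.74 to 27.3), and the median cell stood at 86.8 and 215.9 CPM.

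Cspg4, the gene of NG2, a transmembrane chondroitin sulphate proteoglycan known from pericytes and progenitor cells (mm9 chr9:56712911-56747677, plus strand), was highest in cluster 3. Levels there were 129.1 CPM (114.3 to 145.4) in WT against 103.5 CPM (90.4 to 117.99) in Mkx-/-. TPC-like cells held 63.3 CPM (56.7 to 70.5) and 37.1 CPM (31.95 to 42.8), and TC-like cells 37.9 CPM (33.2 to 42.98) and 43.8 CPM (39.003 to 48.98). The genotype ratio was -0.77 (-1.04 to -0.51) in TPC-like cells. It was -0.32 (-0.58 to -0.06) in cluster 3, and the 0.21 (-0.04 to 0.46) of TC-like cells spans 0, as does the -0.0029 (-0.25 to 0.25) left relative to the median gene.

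The shares of TPC-like cells with a Cspg4 read, 25.96% (17.9 to 35.5) in WT and 28.9% (20.1 to 38.9) in Mkx-/-, did not follow that ratio, and 1 WT cell held 17.3% of the WT reads. The 8 mural markers together stood at 188.9 CPM in WT, with all 8 read, and at 173.1 CPM in Mkx-/-, with 5 read and Myh11, Notch3 and Kcnj8 at 0. Of the cells with Cspg4, 5.41% had a read of Rgs5, Myh11, Mcam, Notch3, Kcnj8 or Abcc9, against 7.76% of all cells, while 69.6% had a read of Pdgfrb, against 54.1% of all cells. A TC-like well, the 1 WT well that had reads of at least 4 mural and 4 endothelial markers, was then left out. The Cspg4 ratio of TC-like cells was 0.31 (0.05 to 0.57) without it and no longer spanned 0, and those of the other clusters stayed as given. The median gene of TC-like cells stood at 0.26 in that setting, inside this interval, so no direction can be given there.

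**Figure D4:**
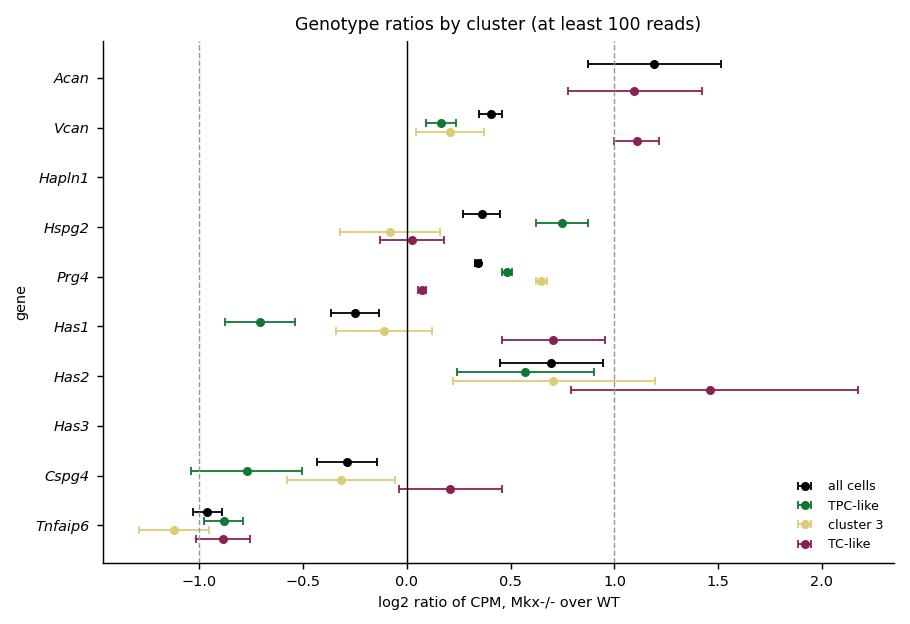
Log2 ratio of CPM, Mkx-/- over WT (horizontal axis), for each gene (vertical axis) over all cells and in each cluster, with exact counting intervals as bars and dashed lines at 2-fold. Points are drawn only for at least 100 reads, so Hapln1 and Has3 have none, and the TC-like points of Acan, Vcan and Has2 lie right of the 2-fold line before the median gene (0.21) is subtracted.

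Over all cells 1 of the 8 genes with at least 100 reads, Acan (log2 ratio 1.19, 0.87 to 1.51), was more than 2-fold higher in Mkx-/-, where 7.23% of all 10963 genes tested were. None was 2-fold lower, against 6.12% of all genes. Their median log2 ratio was 0.35, beside 0.05 for all genes.

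In TC-like cells 3 of 8, Acan, Vcan and Has2, were past 2-fold higher and 0 lower, where 14.1% of all genes were higher and 6.65% lower. Relative to the median gene 1 of 8, Has2, was past 2-fold higher and 1, Tnfaip6, lower, and all genes then split into 9.9% higher and 9.49% lower. The direction of the calls in this cluster thus moved with the scaling for the whole table, from 67.9% higher among genes past 2-fold to 51.1%. In TPC-like cells 0 of 7 passed 2-fold in either direction (8.24% and 7.32% of all genes), and in cluster 3 only Tnfaip6 did, on the lower side (11.9% of all genes were higher and 9.06% lower). The shares of the 10 genes past 2-fold rest on so few genes that they cannot be set apart from these backgrounds.

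Clusters were compared by the ratio in each genotype, and a gene was counted only past 2-fold in both. Against TPC-like cells, 1 of 8 genes, Acan, was more than 2-fold higher in TC-like cells of both genotypes, where 4.75% of all genes were, and 2, Has2 and Tnfaip6, were lower, where 16.3% of all genes were. Cluster 3 had 1 of 7 genes higher than TPC-like cells, Cspg4 (4.38% of all genes), and 1 lower, Vcan (8.44%). Against cluster 3, TC-like cells had Acan higher (5.5%) and 3 genes lower, Has1, Has2 and Cspg4 (11% of all genes). Acan reached 100 reads only through TC-like cells, which held 386 of its 394 reads. Its counts as higher there are therefore a description and no support. In WT its ratio against cluster 3 is only a bound, from 0 reads in that cluster.

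The 7 genes read in at least 20% of cells were only weakly correlated with each other from cell to cell, and Acan, Hapln1 and Has3, read in fewer, were left out. The median cell had reads of 4 of the 10 genes in either genotype, with a range from 1 to 9. The highest correlation of log2(CPM + 10) over all cells was 0.19, between Has1 and Tnfaip6, followed by 0.15 between Vcan and Hspg2. Points share cell depth and cluster, and whether values this weak in sparse counts reflect a relation was not tested. Has1 and Tnfaip6 were read together in 76 TPC-like cells, against 69.3 from the product of the shares, and in 44 TC-like cells, against 37.9. Has2 and Cspg4 were read together in 13 TC-like cells, against 6.88, and Has2 and Tnfaip6 in 19 cells of cluster 3, against 12.7. Has1 and Has2 together were found in 31 TPC-like cells, against 32.2.

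Of the 5125 genes read in at least 20% of cells, those with the highest correlation to each gene over all cells were named as a description. For Vcan they were Anxa2 (0.35), Fstl1 (0.34) and Fbn1 (0.33), of which Fstl1 is a TPC marker and Fbn1 encodes the microfibril protein fibrillin-1. For Has1 they were Bhlhe40 (0.30), Csrnp1 (0.26) and Atf3 (0.26), all transcription factors of the immediate stress and growth factor response. For Tnfaip6 they were Ugp2 (0.27), which makes UDP-glucose, Hacd1 (0.26) and Htra3 (0.25). For Has2 they were Fbln2 (0.26), Ackr4 (0.25) and Htra3 (0.25), for Hspg2 Adgrg2 (0.25), Ahnak (0.23) and Cdh13 (0.23), for Prg4 Serpine2 (0.26), Ctsk (0.24) and Il1rl1 (0.23), and for Cspg4 Map4k4 (0.29), Homer2 (0.25) and Gtf2a2 (0.23).

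Another 46 genes of the same matrix were listed by role, and 32 of them had at least 100 reads over all cells. Past 2-fold, 2 were higher in Mkx-/-, Lyve1 and Hyal2, and 2 were lower, Hmmr and Cemip, where 7.23% of all genes were higher and 6.12% lower, so the shares lie near the background. The median log2 ratio of the 32 was -0.08. All 4 were rare. Lyve1, a hyaluronan receptor of lymphatic vessels and some macrophages, was read in 7 WT and 15 Mkx-/- cells (log2 ratio 1.62, 1.26 to 1.99), and Hyal2, a hyaluronidase of the cell surface, in 3 and 14 cells (1.45, 0.86 to 2.08). Both turned between these clusters. Lyve1 had 30 and 240 reads in WT and Mkx-/- TPC-like cells but 53 and 26 in TC-like cells. Hyal2 had 1 and 23 reads against 31 and 18. Of its 32 and 91 reads in all, most Mkx-/- reads and no WT read thus lay in cluster 3. With 3 reads put in for WT, the log2 ratio of Hyal2 there was 4.03. Hmmr, a hyaluronan-binding protein of dividing cells, was read in 10 and 3 cells (-1.59, -2.24 to -0.98), and Cemip, which binds hyaluronan for breakdown, in 7 and 6 cells (-2.39, -3.21 to -1.65). In each genotype 1 cell held between 21.98% and 56.2% of the reads of these 4 genes.

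The enzymes that make the sugar nucleotides of hyaluronan were read in most cells, apart from Gfpt1. None of the 5 was past 2-fold. Ugdh, which makes UDP-glucuronic acid, stood at 1030 CPM in WT against 711 CPM in Mkx-/- (log2 ratio -0.53, -0.57 to -0.50), and Uap1, which makes UDP-N-acetylglucosamine, at 754 and 544 CPM (-0.47, -0.51 to -0.43). Ugp2 had a ratio of -0.16 (-0.19 to -0.12), Gfpt2 of -0.20 (-0.23 to -0.17) and Gfpt1 of 0.20 (0.05 to 0.35). For Ugdh the ratio was -0.73 in TPC-like cells and -0.16 in TC-like cells, or -0.37 relative to the median gene there. Cd44, the main hyaluronan receptor, which also served as a TPC marker, stood at 1328 CPM in WT against 1586 CPM in Mkx-/- (0.26, 0.23 to 0.28).

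Among the 7 of 8 proteases that cut aggrecan or versican and their inhibitor with enough reads, 0 were past 2-fold in either direction, beside 7.23% higher and 6.12% lower of all genes. With cells weighted alike 1 was past 2-fold higher, and again 1 when cells under 28000 reads were also left out. The median ratio of the 7 went from -0.11 to 0.37 and 0.34 in these settings. Adamts1 stood at 147.8 CPM in WT against 264 CPM in Mkx-/- (log2 ratio 0.83, 0.76 to 0.91), Adamts8 at 20.03 and 36.3 CPM (0.86, 0.64 to 1.08) and Adamts5 at 424 and 546 CPM (0.37, 0.32 to 0.42). Adamts4 had a ratio of -0.11 (-0.27 to 0.06), Adamts15 of -0.41 (-0.58 to -0.24), and the inhibitor Timp3 of -0.50 (-0.67 to -0.34). Adamts9 had a ratio of -0.63 (-0.97 to -0.29). The proteases were thus split in direction over all cells, with Adamts1, Adamts8 and Adamts5 higher and Adamts9 and Adamts15 lower in Mkx-/-.

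Of the 9 basement membrane genes with enough reads none was past 2-fold, with a median of 0.26. Col4a1 and Col4a2, the chains of the collagen that perlecan lies beside, had ratios of 0.64 (0.57 to 0.71) and 0.55 (0.48 to 0.62) over all cells, and in TPC-like cells 0.87 and 0.95, where Hspg2 stood at 0.75. In TC-like cells theirs were 1.09 and 0.96, or 0.88 and 0.75 relative to the median gene, beside the 0.02 and -0.19 of Hspg2. Nid1, which bridges collagen IV and laminin, had a ratio of -0.53 (-0.60 to -0.46). Among partners of TSG-6, Itih5 had a ratio of -0.43 (-0.53 to -0.33). Ptx3, a long pentraxin of the hyaluronan matrix, had a ratio of 0.27 (0.15 to 0.39). Itih2 stood at 7.41 CPM in WT against 4.52 CPM in Mkx-/- (-0.71, -1.19 to -0.25). It was read in 8 WT and 7 Mkx-/- cells, and 1 cell held 55.4% of its WT reads. Itih1, Itih3 and Ambp had 0 reads, which allows at most 0.22 CPM in WT against 0.21 CPM in Mkx-/-. Of the lecticans beside aggrecan and versican, Bcan stood at 15.7 CPM in WT against 11.7 CPM in Mkx-/- (-0.42, -0.72 to -0.12), and Ncan had 2 and 8 reads.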

How the data were processed

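Single tail tendon cells were sequenced as paired reads of a Fluidigm C1 high-throughput library. Before capture the tendons were minced and digested with collagenase, and what that step did to the levels was not tested. What the authors deposited are raw counts of reads for each gene in each cell. Per their methods, reads were filtered with AfterQC and trimmed, placed with bowtie2 and counted with featureCounts. The methods name mm9 as the genome and the submitters' processing notes name mm10. How multi-mapping reads and strand were handled is not given in the sources used here, and the counts hold no unique molecular identifiers. The study states more cells after its quality control than the 451 analysed here (TPC-like 104 WT and 97 Mkx-/-, cluster 3 50 and 46, TC-like 73 and 81), in which no 2 cells had identical counts. The WT cells held 13630536 reads (13076 to 335813 per cell) and the Mkx-/- cells 14145394 (14226 to 294791). No cell was removed and no doublet caller was run. Thinned shares use the 204 WT and 206 Mkx-/- cells with at least 28000 reads. Ratios over these cells used the mean CPM per cell without thinning. 0 columns were unused.

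Counts were summed per genotype and cluster and scaled to CPM, with exact Poisson intervals for sums, exact conditional binomial intervals for ratios, Clopper-Pearson intervals for shares and Newcombe intervals for their differences (Python 3.11.15, scipy 1.17.1). A gene counted as past 2-fold at a log2 ratio of at least 1 with at least 100 reads. The scripts were tested on simulated data. Cells were clustered with Seurat 5.3.0 (R 4.3.3) after the study's methods, with canonical correlation anchors, 4 dimensions and resolution 0.4 on 1679 of 1693 variable genes, leaving out 14 of the examined and listed genes. Clusters were rebuilt here and need not match the study's. Alternatives covered scaling (TMM and median-of-ratios factors, edgeR 4.0.16), cell weight, depth, leading cells, cells with few or many genes, dimensions and the variable genes.

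All 10 genes are named. Of the listed genes, any with at least 100 reads may be named and those past 2-fold are, and for each examined gene read in at least 20% of cells the 3 most correlated genes are given. Ncan, Itih1, Itih3 and Ambp were named outside that rule after their values were seen. The genes and lists were chosen with earlier results of these data known. Positions are from GENCODE M1 on mm9 and promoters from RefSeq on GRCm38.p6, and positions of the builds are not interchangeable.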

Additional observations from a re-analysis of the deposited data

Results flagged for a closer look

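The genotype ratio of Has1 had opposite signs in different clusters, each beyond its counting interval. It was 0.70 (0.46 to 0.95) in TC-like cells and -0.71 (-0.88 to -0.54) in TPC-like cells, on the log2 scale of Mkx-/- over WT. The difference between the clusters was not tested, since each genotype was 1 sample. Of 7556 genes with at least 100 reads in at least 2 clusters, 2477 (32.8%) had such opposite signs, and of the 7 examined genes 1 did, Has1. Relative to the median gene of each cluster Prg4 (0.58 in cluster 3, -0.14 in TC-like cells) and Hspg2 (0.75 in TPC-like, -0.19 in TC-like cells) did as well. Cspg4 did so only before centring and without the well with mural and endothelial markers (-0.77 in TPC-like, 0.31 in TC-like cells). In that setting the median gene of TC-like cells stood at 0.26, inside the interval of the Cspg4 ratio (0.05 to 0.57). Relative to the median gene the TC-like ratio of Has1 was 0.49 (0.24 to 0.74). Before centring, it went from 0.70 to 0.57 (0.30 to 0.85) once the cell with most Has1 reads in either genotype was left out. Among TC-like cells with a Has1 read the median was 99.7 CPM in WT against 57.6 CPM in Mkx-/-, opposite to the summed level.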

How the results depend on the processing

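Among the settings tried, these changed a count of genes past 2-fold. Over all cells the count of higher genes was 0 among cells with under 5000 genes (Acan 0.92), and the count of lower genes was 1 among cells with at least 2500 genes (Tnfaip6 -1.05), 1 with a minimum of 20 reads or with no minimum (Hapln1 -1.70) and 1 after centring on the median gene (Tnfaip6 -1.02). With 10 dimensions 1 gene was lower in TPC-like cells (Tnfaip6 -1.09) and 0 in cluster 3 (Tnfaip6 -0.55). With cells weighted alike 1 gene was higher in cluster 3 (Has2 1.38). After centring, 1 gene was higher and 1 lower in TC-like cells, where the Prg4 ratio turned from 0.07 to -0.14. Without the leading cells 2 of 7 genes were higher in TC-like cells. With cells weighted alike, whether or not those under 28000 reads were left out, 3 listed genes were higher and 3 lower in place of 2 and 2. Without the well with mural and endothelial markers 1 listed gene was lower in place of 2. Centring was added after the data were seen. Hapln1 ranged from -2.25 to -0.72 over the settings tried. Of 220 recomputed genotype ratios, 180 stayed within their counting interval, 39 moved beyond it and 1 turned. A ratio counted as turned only if its first interval excluded 0. Other changes of sign, such as that of Hspg2 in TC-like cells from 0.02 to -0.19, are among the 180 and the 39. No paired analysis was possible because the labels number cells and not animals, and each genotype was 1 sample. The causes of these changes were not tested, apart from centring and read minimums, which act by construction. Outside TC-like cells Acan had 0 to 4 reads per genotype and cluster, which cannot show a difference. Hapln1 was read in 8 WT and 5 Mkx-/- cells and Has3 in 3 and 3, so 1 cell can carry a ratio of either gene.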
